A study of Mus musculus with 3 samples.

Results

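Imprinted genes were followed in RNA of mouse heart tubes from embryonic day 9.5 (E9.5), the stage at which the heart is a looping tube. The set held 39 genes chosen by name from the known imprinted domains of the mouse, out of 23337 gene symbols counted, and all 39 matched a symbol. They were divided by the parental allele that is known to be expressed, with 18 maternally and 21 paternally expressed genes. The 2 libraries of one group came from Sox7-null heart tube samples, labelled SOX7 (-/-), and the single library of the other from a wild-type sample. Sox7 encodes a SoxF transcription factor of endothelium and endocardium, and the comparison asks what its loss changes in the transcripts of the developing heart. The labels give no strain, sex, null allele or number of embryos per tube, and nothing shows that the 2 null libraries came from separate litters, so p-values here measure only the spread between these libraries, which may be technical.

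An imprinted gene is transcribed mainly from the copy inherited from a given parent, because DNA methylation set in the egg or sperm marks a control region and is kept through development. Such genes lie in clusters in which maternally and paternally expressed genes often share a control region, and several clusters contain a long noncoding RNA that silences its neighbours on the same chromosome. Many of them act on growth of the embryo and placenta: paternally expressed genes such as Igf2 tend to promote it, and maternally expressed genes such as Igf2r, Cdkn1c, Grb10 and Phlda2 tend to restrain it. Read counts per gene sum both alleles, so these data give the level of each gene and hold no measure of which allele was read.

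CG dinucleotides, the sites that DNA methylation marks, are dense at the start of some of the 39 genes, called and uncalled, and 4 start sites are shown for this reason. They are RefSeq sequences of build GRCm38.p6, from 250 bases before to 50 bases after the start, 5′ to 3′ on the gene's strand, with every CG in capitals. Igf2r (chr17:12769657-12769956, minus strand) rose in the Sox7-null libraries, Airn (chr17:12741061-12741360, plus strand) is its antisense silencer and was not called, Igf2 (chr7:142658755-142659054, minus strand; the most CG-rich of its 4 listed starts) rose, and Phlda2 (chr7:143502475-143502774, minus strand) fell.
Igf2r: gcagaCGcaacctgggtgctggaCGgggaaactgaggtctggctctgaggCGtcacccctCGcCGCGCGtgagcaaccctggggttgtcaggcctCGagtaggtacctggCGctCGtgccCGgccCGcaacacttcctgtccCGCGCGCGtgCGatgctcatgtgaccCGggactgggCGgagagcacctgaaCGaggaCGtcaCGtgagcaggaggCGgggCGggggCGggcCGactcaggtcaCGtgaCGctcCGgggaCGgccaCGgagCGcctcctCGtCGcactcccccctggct
Airn: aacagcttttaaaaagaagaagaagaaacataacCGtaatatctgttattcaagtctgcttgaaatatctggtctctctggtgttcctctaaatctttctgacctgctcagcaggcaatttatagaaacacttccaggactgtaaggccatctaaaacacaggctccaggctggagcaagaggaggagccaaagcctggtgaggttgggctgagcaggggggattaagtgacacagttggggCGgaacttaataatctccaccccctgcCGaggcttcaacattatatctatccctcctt
Igf2: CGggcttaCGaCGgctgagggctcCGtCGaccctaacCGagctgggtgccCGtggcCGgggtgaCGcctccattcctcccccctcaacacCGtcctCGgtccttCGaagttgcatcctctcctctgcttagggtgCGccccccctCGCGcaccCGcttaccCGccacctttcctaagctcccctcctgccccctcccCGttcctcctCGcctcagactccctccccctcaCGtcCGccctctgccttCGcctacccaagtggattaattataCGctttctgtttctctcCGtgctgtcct
Phlda2: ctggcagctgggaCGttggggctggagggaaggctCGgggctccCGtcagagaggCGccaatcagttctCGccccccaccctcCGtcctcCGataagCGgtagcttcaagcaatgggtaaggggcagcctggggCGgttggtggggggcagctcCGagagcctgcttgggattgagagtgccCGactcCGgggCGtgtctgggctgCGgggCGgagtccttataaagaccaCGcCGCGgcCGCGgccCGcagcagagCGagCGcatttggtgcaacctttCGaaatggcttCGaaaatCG
The windows hold 34 CG in Igf2r, 3 in Airn, 24 in Igf2 and 26 in Phlda2. Of all 32851 RefSeq windows of this length, 7.73%, 76.7%, 20% and 16.9% held at least as many. Dense starts were not limited to called genes: windows of the uncalled Ppp1r9a held 48 and 10 CG, and that of the uncalled Plagl1 26. Among called genes, windows of Grb10 held 45 and 9 CG, and those of Asb4 6 and 8. A link of CG number to the calls was not tested. Promoter windows were matched for 32 of the 39 genes, with 48 windows in all and a median of 15 CG, against 7 over all windows. The letters ACGTG, the core bound by hypoxia-inducible factors, were searched on both strands, where CACGTG counts on each. They were present in a window of 4 of the 7 higher, 1 of the 5 lower and 4 of the 16 uncalled genes that had a window. Over the 32 genes this was 28.1%, against 21.8% of all 27025 genes with a window. A gene counted if any of its windows matched, so genes with several listed starts had more windows in which to match. The split by call was not tested. A match is a description of letters and says nothing on binding.

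Reads assigned to genes numbered 13139823 and 13618338 in the Sox7-null libraries and 13789388 in the wild type. Sox7 had 2 and 7 reads against 222, so it was low in both libraries labelled null. The extraction text names retinal organoids while the tissue label names the heart tube: all 16 cardiomyocyte markers had reads, and their levels summed to 40200 and 37500 CPM against 32000 (CPM are gene reads scaled to a common library total with TMM factors; here and below the value of Sox7-null 1 comes first, that of Sox7-null 2 next, and the wild type after "against"), and of the retinal markers Six6, Crx, Rcvrn and Atoh7 had 0 in every library. Other retinal markers had reads: Mitf, also a gene of heart muscle, had 992 and 751 against 538, Otx2 had 13 and 3 against 15, and Lhx2 had 5 and 2 against 58 and fell. In the wild type, 22.3% of the reads in the file were not uniquely aligned, against 10.4% and 11.6% in the null libraries. A gene was called changed at an adjusted p under 0.05 in edgeR's quasi-likelihood test over 13334 genes, and 21.6% of all genes tested were called, 11.3% higher and 10.2% lower.

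Imprinted genes changed in both directions in the Sox7-null heart tubes. The growth factor gene Igf2, its neighbour H19 and the receptor that clears the Igf2 protein, Igf2r, were all higher, by log2 fold changes of 0.85 ± 0.14, 0.97 ± 0.15 and 1.18 ± 0.20 (SE; 2 libraries against 1), while the cell cycle inhibitor Cdkn1c was lower, at -0.63 ± 0.14. Of 35 imprinted genes tested, 9 rose, 6 fell and 20 were not called. That was 42.9% called, against 21.6% of all genes, and the median log2 fold change was 0.215, against 0.014 for all genes. Ascl2, among the 9, passed the filter on low counts only through the null libraries, where it is high. The list was also drawn up with earlier results of these data known, so these shares are a description and were not tested. The remaining 4 genes, Slc22a18, Dio3, Snrpn and Magel2, had under 10 reads in every library and were left out by the filter on low counts. In bulk tissue, fewer cells of a type and less RNA per cell cannot be told apart.

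By expressed allele, 6 of 17 maternally expressed genes rose and 4 fell (58.8% called, with a median log2 fold change of 0.379). Of 18 paternally expressed genes 3 rose and 2 fell (27.8% called, with a median of 0.142). Over all genes tested, 21.6% were called, 11.3% higher and 10.2% lower. The maternally expressed genes stood at 35.3% higher and 23.5% lower, and the paternally expressed genes at 16.7% and 11.1%. The difference between these classes was not tested. The classes rest on the allele known to be expressed, and imprinting of the members in the heart tube was not measured. Among maternally expressed genes H19, Igf2r, Ascl2, Zim1, Grb10 and Gnas rose, and Phlda2, Cdkn1c, Asb4 and Commd1 fell. Among paternally expressed genes Igf2, Peg3 and Peg10 rose, and Ndn and Nnat fell. Gnas and Commd1 are imprinted in few tissues or by transcript, and without them 5 of 15 maternally expressed genes rose and 3 fell. Only these genes were left out, and whether other members are also imprinted in few tissues was not checked. Ascl2, which passed the filter on low counts only through the null libraries, is among the risers in each of these maternal counts. Together the 39 genes held 1.66% and 1.46% of gene reads against 1.15% (95% exact binomial intervals 1.648 to 1.662, 1.456 to 1.468 and 1.142 to 1.153, for counting error only).

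**Figure D1:**
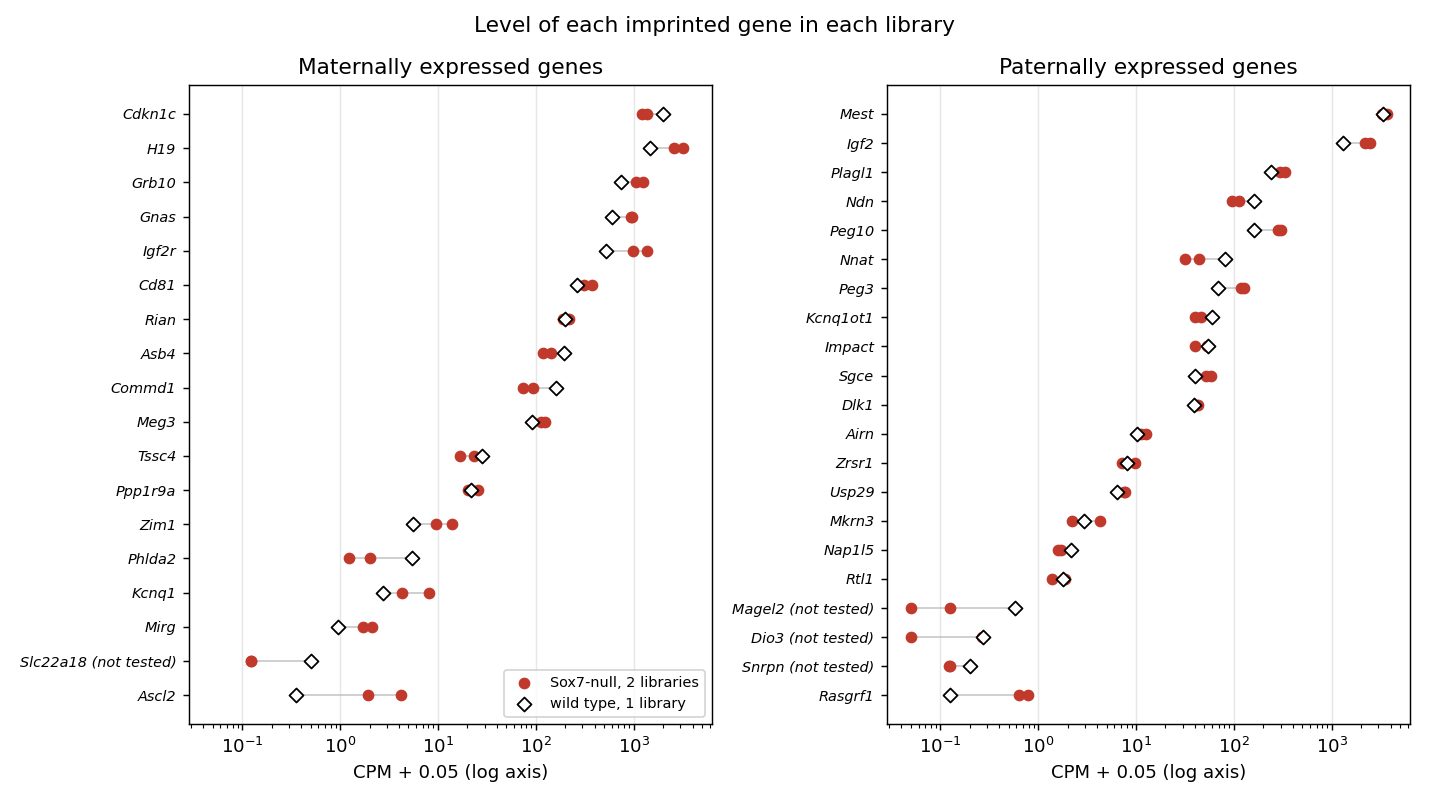
Level of each of the 39 imprinted genes in CPM, plus 0.05 on a log axis, in the 2 Sox7-null libraries (filled circles) and the wild-type library (open diamonds), with maternally expressed genes on the left and paternally expressed genes on the right. H19, Igf2 and Igf2r lie higher in both null libraries than in the wild type, Cdkn1c, Nnat and Commd1 lie lower, and the marks of Mest lie together.

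The wild-type level lay below both null libraries in 19 of the 35 tested genes and above both in 10, against 43.1% and 43% of all genes tested. Among the 15 called genes, the change was larger in Sox7-null 1 than in Sox7-null 2 in 14, with Gnas as the exception; over all called genes this held for 88.8%.

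**Figure D2:**
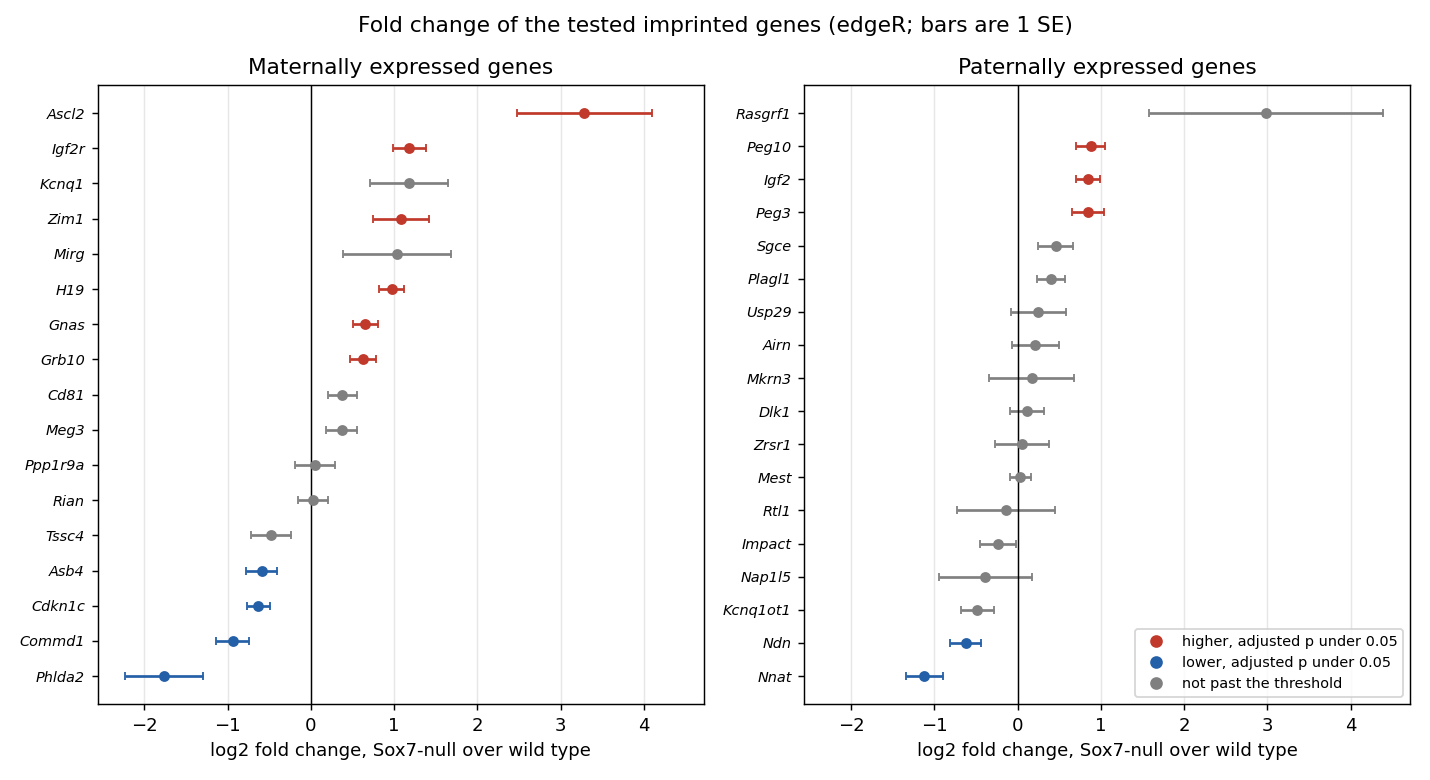
Log2 fold change of the 35 tested imprinted genes, Sox7-null over wild type, with bars of 1 SE from edgeR, for maternally (left) and paternally (right) expressed genes. Colours mark the 9 genes called higher and the 6 called lower; Ascl2 and Rasgrf1 have the widest bars, with 4 and 1 reads in the wild type.

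In the H19-Igf2 domain, both genes rose together. H19 is a long noncoding RNA read from the maternal copy, and Igf2 encodes a fetal growth factor read from the paternal copy, and the pair share enhancers. H19 stood at 3186 and 2614 CPM against 1481, and Igf2 at 2459 and 2191 against 1293. The wild type was the lowest library for each, outside the range of the null libraries (edgeR adjusted p = 0.00125 for H19 and 0.00180 for Igf2). The microRNA miR-675 is cut from the H19 transcript. The row Mir675 had 0 reads in all 3 libraries, beside at least 19639 for its host. HTSeq can set aside as ambiguous the reads that fall on both rows, so the level of miR-675 is not known from these counts. Its 2 mature strands are shown for this reason (RefSeq, GRCm38.p6, with the seed, bases 2 to 8, in capitals).
mmu-miR-675-5p: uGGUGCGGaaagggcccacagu
mmu-miR-675-3p: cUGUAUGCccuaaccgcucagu
The antisense row Igf2as had 338 and 513 reads against 486 and was not called (-0.23 ± 0.25 on the log2 scale; adjusted p of edgeR, 0.536). Without a stated strand setting in the counting, reads of Igf2 and Igf2as cannot be told apart. H19 and Igf2 are also made in liver and yolk sac endoderm and in mesenchyme. Of 15 endoderm markers 1 rose and 8 fell (60% called, against 21.6% of all genes). Summed levels were 23 and 18.7 CPM against 68.5, with 0 reads of Alb and Serpina1a in both null libraries. Every faller except Apoa2 passed the filter on low counts only through the wild type, where it is high, so these calls are given as a description. DESeq2 called 0 higher and 3 lower. Of 12 mesenchyme and epicardium markers 2 rose and 2 fell (33.3% called), with 450 and 305 against 376 CPM, and none was at 0. Lum, among the fallers, passed the filter only through the wild type. DESeq2 called 1 of these markers higher and 0 lower.

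The receptor arm of this axis was higher too. Igf2r, which carries the Igf2 protein to lysosomes, stood at 1367 and 978.2 CPM against 516.5 (edgeR adjusted p = 0.00170). Airn, the paternally expressed antisense RNA that silences Igf2r on its own chromosome, had 169 and 153 reads against 135 and was not called (0.22 ± 0.28 on the log2 scale; adjusted p of edgeR, 0.624). The wild type was well below both null libraries for Igf2r, while the 3 libraries lay close together for Airn. This contrast depended on the processing. Once a trend of fold change on transcript length and GC content was removed, Igf2r stood at 0.76 and Airn at 0.74. Igf2r was then called (adjusted p of edgeR, 0.0215) and Airn was not (adjusted p of edgeR, 0.1), and the difference between them was not tested. The removal took a length of 1375 bases for Airn, that of its longest GENCODE transcript, and other lengths were not tried. Grb10, an adaptor that restrains insulin and IGF receptors, rose to 1254 and 1064 CPM from 748.9 (log2 fold change 0.63 ± 0.16, edgeR adjusted p = 0.0139). Plagl1, a zinc finger factor known to act on other imprinted genes, stood at 336 and 296.4 CPM against 239.2 and did not pass (log2 fold change 0.40 ± 0.17, edgeR adjusted p = 0.113).

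Among 18 other genes of the IGF axis, 15 were tested, of which 11 rose and 3 fell. That was 93.3% called, against 21.6% of all genes, with a median log2 fold change of 1.01. The list was drawn up with earlier results of these data known, so its share is given as a description. The receptor gene Igf1r rose from 85.9 CPM to 191 and 153, a log2 fold change of 1.00 ± 0.20. Its ligand gene Igf1 fell, at -1.22 ± 0.21. Stc2 and Stc1, whose products inhibit the protease that frees IGFs, rose by 4.93 ± 0.42 and 1.72 ± 0.26, the binding protein gene Igfbp3 by 1.83 ± 0.25, the RNA-binding protein gene Igf2bp2 by 1.23 ± 0.19 and the receptor substrate gene Irs2 by 1.97 ± 0.34. With a trend on transcript length and GC removed, 7 of the 15 rose and 3 fell, where 13.4% of all genes were called.

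The Cdkn1c-Kcnq1ot1 domain held genes that moved in opposite directions, 1 higher and 2 lower of 7 tested, beside 21.6% of all genes called. Cdkn1c, which encodes the cyclin-dependent kinase inhibitor p57, fell to 1226 and 1368 CPM from 2008 (edgeR adjusted p = 0.00698). Phlda2, a restrainer of placental growth, had 16 and 27 reads against 71 and fell, by the fitted log2 value -1.76 ± 0.47 (adjusted p of edgeR, 0.0190). Both null libraries lay below the wild type for each gene. Ascl2, a bHLH transcription factor needed in trophoblast, had 56 and 26 reads against 4 and rose, with a level 9.97-fold higher (95% exact interval for counting error 3.75 to 37.5; edgeR adjusted p = 0.0132). Ascl2, like Rasgrf1, passed the filter on low counts only through the null libraries, where it is high, so its call is given as a description. The null libraries differed between themselves: on the scale of log2(CPM + 0.5), Ascl2 lay 2.54 above the wild type in Sox7-null 1 and 1.57 above it in Sox7-null 2. With limma-voom it did not pass (adjusted p = 0.0601).

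The other members of that domain were not called. Kcnq1ot1, the paternally expressed noncoding RNA that silences the cluster, had 543 and 631 reads against 798 (-0.48 ± 0.20 on the log2 scale; adjusted p of edgeR, 0.104). The potassium channel gene Kcnq1, which Kcnq1ot1 crosses in antisense, had 109 and 58 reads against 36 (1.18 ± 0.47, edgeR adjusted p = 0.0909). For both genes the wild type lay outside the null libraries, below them for Kcnq1 and above them for Kcnq1ot1. The tetraspanin gene Cd81 stood at 0.38 ± 0.18 and Tssc4, a factor in snRNP assembly, at -0.48 ± 0.24. Slc22a18, a transporter, had 1 and 1 reads against 6. Phlda2, Ascl2 and the retrotransposon-derived Peg10 and Rtl1 are best known from the placenta. Of 13 trophoblast markers, 2 were tested, Plac1 (-1.25 ± 0.44) and Hsd3b6 (-1.26 ± 0.47), of which edgeR called 0 and limma-voom 1 lower, Tpbpa, Synb and Ctsq were at 0 reads in all libraries, and the summed level was 5.19 and 10.9 CPM against 18.8.

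Peg10 and Sgce, paternally expressed genes that share a start region, both had their lowest level in the wild type. Peg10 rose to 304.4 and 281.8 CPM from 159.4 (log2 fold change 0.88 ± 0.18, edgeR adjusted p = 0.00470). Sgce, which encodes epsilon-sarcoglycan of the muscle membrane, stood at 58.46 and 51.52 against 40.04 and did not pass (edgeR adjusted p = 0.136). Of the maternally expressed genes of this domain, Asb4, a ubiquitin ligase adaptor of vascular development, fell to 117.9 and 143 CPM from 196.2 (log2 fold change -0.59 ± 0.19, edgeR adjusted p = 0.0393), and Ppp1r9a, which encodes the actin-binding neurabin, had its wild-type level between the null libraries. The same 4-gene domain thus held a riser, a faller and a pair of uncalled genes.

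In the Peg3 domain, the zinc finger gene Peg3, paternally expressed, rose to 128 and 118.3 CPM from 68.55 (log2 fold change 0.84 ± 0.19, edgeR adjusted p = 0.00941). Zim1, its maternally expressed neighbour, had 185 and 132 reads against 73 and rose as well (1.08 ± 0.34, edgeR adjusted p = 0.0380). Usp29, a ubiquitin protease gene whose start lies next to that of Peg3, had 102 and 106 reads against 85 and was not called. All 3 genes thus had their lowest level in the wild type, by a small margin for Usp29.

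No gene of the Dlk1-Dio3 domain was called. Dlk1, a paternally expressed transmembrane protein of the Notch ligand family, stood at 41.02 and 43.03 CPM against 38.76, and the maternally expressed noncoding RNA Meg3 at 113.9 and 124.7 against 92.38 (log2 fold changes 0.12 ± 0.21 and 0.37 ± 0.19; edgeR adjusted p = 0.728 and 0.185). Rian, a snoRNA host transcript, had 190.9 and 216.4 CPM against 199.6, with the wild type between the null libraries. Mirg, a microRNA host, and Rtl1, a retrotransposon-derived gene, had at most 28 reads in a library and wide errors, with log2 fold changes of 1.04 ± 0.65 and -0.14 ± 0.59. Dio3, which inactivates thyroid hormone, had 0 and 3 reads against 3. With the trend on length and GC removed, the values of Dlk1 and Meg3 changed sign, to -0.18 and -0.006, and remained uncalled.

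Among genes of the Snrpn-Ndn domain, the growth suppressor gene Ndn fell to 95.47 and 113.3 CPM from 160.6 (log2 fold change -0.62 ± 0.19, edgeR adjusted p = 0.0324). Mkrn3, a ubiquitin ligase gene, had 29 and 59 reads against 38 and was not called, and Magel2 had 1 and 0 against 7. Snrpn, a splicing factor gene widely expressed in the embryo, had 1 and 1 reads against 2, and Snurf, which is encoded on the same transcript, had 0 in all libraries. HTSeq can set aside as ambiguous the reads that fall on more than 1 annotated gene, as it did for 2.27%, 2.29% and 1.97% of the reads in the files, so the level of Snrpn is not known from these counts. Ndn and the next gene, Nnat, are also made in neural tissue. Of 14 neural markers 7 were tested. Of these 2 rose (Nes, a gene of other developing tissues too, and Sox3) and 1 fell (Elavl4). That was 42.9% called, against 21.6% of all genes, and DESeq2 called 1 higher and 0 lower. Sox1, Neurod1, Neurog1 and Neurog2 were at 0. The summed level was 228 and 220 CPM against 138, mostly from Nes at 185 and 193 against 106. Tubb3 stood at 25.1 and 11.2 against 13.5, Sox3 at 8.53 and 6.1 against 2.11, and Elavl4 at 5.19 and 5.95 against 11.5.

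Among the remaining genes, Nnat, which encodes a small membrane protein of the endoplasmic reticulum, fell to 31.6 and 43.47 CPM from 81.6 (log2 fold change -1.12 ± 0.22, edgeR adjusted p = 0.00419). Commd1, which regulates copper export and NF-kB and is imprinted weakly, fell to 73.14 and 93.75 CPM from 159.9 (-0.94 ± 0.20, edgeR adjusted p = 0.00600), and Zrsr1, the paternally expressed gene inside its intron, had 130 and 98 reads against 107 and was not called. Gnas, which encodes the stimulatory G protein alpha subunit and other proteins from several starts, rose to 944.9 and 961.5 CPM from 606.8 (0.65 ± 0.15, edgeR adjusted p = 0.00933). The null libraries lay on one side of the wild type for all of these except Zrsr1.

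Mest, a hydrolase gene of mesoderm and per kilobase the most abundant of the 39 genes in the wild type, did not pass: it had 3644 and 3242 CPM against 3366, or 0.03 ± 0.13 on the log2 scale (adjusted p of edgeR, 0.884). Per kilobase of the longest GENCODE transcript, wild-type levels were 1260 CPM for Mest, 1060 for Cdkn1c, 648 for H19 and 274 for Igf2. In the null libraries H19 stood at 1390 and 1140, close to Mest at 1370 and 1220, and Cdkn1c at 645 and 720. Impact, an inhibitor of the stress kinase Gcn2, had 542 and 723 reads against 724, and Nap1l5, of the nucleosome assembly family, 21 and 23 against 28; neither was called. Rasgrf1, a Ras exchange factor, had 10 and 8 reads against 1 and was not called (8.76-fold, 95% exact interval 1.38 to 365; edgeR adjusted p = 0.149).

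**Figure D3:**
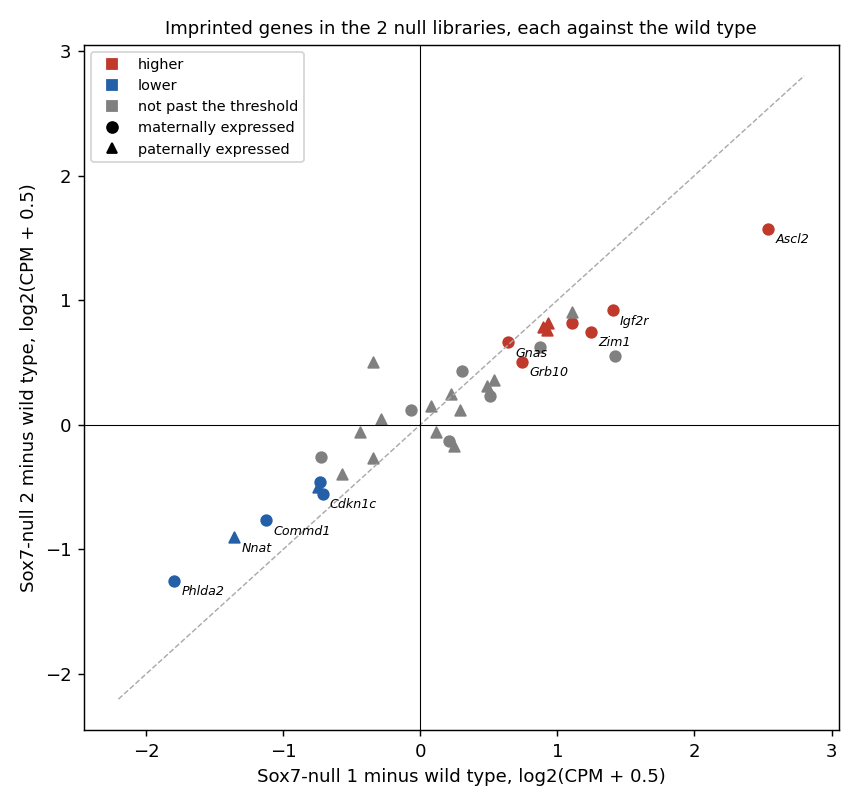
Each tested imprinted gene by its difference from the wild type in log2(CPM + 0.5), in Sox7-null 1 (horizontal) and Sox7-null 2 (vertical); circles are maternally and triangles paternally expressed genes, and the dashed line marks equal values. Both axes share the wild-type library, so the position along the line is not independent; most called genes lie on the side where Sox7-null 1 is further from 0.

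Further genes reported as imprinted in at least some mouse tissue numbered 48, of which 46 matched a symbol and 36 were tested. Of these 4 rose and 2 fell, 16.7% against the 21.6% of all genes, with a median log2 fold change of 0.044. Sfmbt2, a Polycomb-group gene, rose by 2.11 ± 0.44, the calcitonin receptor gene Calcr by 1.87 ± 0.56, the receptor kinase gene Axl by 1.61 ± 0.29 and Copg2, a coat protein gene that lies tail to tail with Mest, by 0.98 ± 0.22. Ddc, which makes dopamine and serotonin, fell, at -0.82 ± 0.20, and the ubiquitin ligase gene Ube3a at -0.78 ± 0.18. Both DESeq2 and the fit without the trend on length and GC called 1 gene of the list lower.

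Of 30 genes that set, read or keep imprints, 26 were tested, 4 rose and 2 fell (23.1% called, near the 21.6% of all genes; median -0.077). The 3 Tet genes, which encode enzymes that oxidise methylcytosine, all rose, Tet1 from 17 CPM to 49.8 and 32.4, Tet2 from 8.97 to 29.6 and 18.7 and Tet3 from 29 to 58.2 and 45.4 (log2 fold changes 1.27 ± 0.28, 1.43 ± 0.31 and 0.84 ± 0.23). The cohesin subunit gene Smc1a rose by 0.75 ± 0.20. Hells, a remodeler needed for DNA methylation, fell, at -0.95 ± 0.21, and so did the Polycomb methyltransferase gene Ezh2, at -0.61 ± 0.20 (edgeR adjusted p = 0.0441). DESeq2 called 1 gene of the list lower, and so did edgeR at a mean of at least 5 CPM. The maintenance methyltransferase gene Dnmt1 (0.22 ± 0.20), the insulator factor gene Ctcf (-0.38 ± 0.19) and the corepressor gene Trim28 (0.009 ± 0.17) were not called (edgeR adjusted p = 0.456, 0.179 and 0.976), and DNA methylation was not measured.

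Other genes moved with the same groups. All 16 genes of a low-oxygen response list were called higher, against 11.3% of all genes tested, with summed levels of 17900 and 16300 CPM against 8850. That list was also drawn up with earlier results of these data known. Of 10 endothelial and endocardial markers, 3 rose and 2 fell (631 and 608 against 571 CPM). That was 50% called, against 21.6% of all genes. DESeq2, which called 1662 of the 13334 genes, called 1 of these markers higher and 1 lower. None of 10 tested primitive erythroid markers was called, with sums of 4890 and 14900 against 14300 CPM, so that Sox7-null 1 stood apart, and Hba-a1 and Hba-a2 at 0. Skeletal and paraxial mesoderm markers summed to at most 3.86 CPM, with Myf5, Myod1, Myog, Pax3, Pax7 and Uncx at 0. Of 16 cardiomyocyte markers 7 rose and 1 fell (50% called). Of 3 tested retinal markers 0 rose and 1 fell (33.3% called). The faller, Lhx2, passed the filter on low counts only through the wild type, where it is high. DESeq2 called 0 of these 3. The retinal sum was 75.4 and 54.9 CPM against 46.2, nearly all from Mitf. The part of these differences in the levels of the imprinted genes was not tested.

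Calls for individual members depended on the test. Under 6 other fits (other scalings, a mean of at least 5 CPM, DESeq2, limma-voom, and removal of the trend on length and GC), 7 of the 15 genes passed each time: H19, Igf2, Igf2r and Peg10 higher, and Cdkn1c, Nnat and Commd1 lower. With the trend removed, 6 imprinted genes rose and 3 fell, where 13.4% of all genes were called, and Igf2, Igf2r and Gnas moved to 0.47, 0.76 and 0.30. Peg3 (0.58), Grb10 (0.49), Gnas, Zim1 (0.96), Phlda2 (-1.27), Asb4 (-0.40) and Ndn (-0.48) kept their sign and were then no longer called, and Cd81 was, at 0.70 (adjusted p = 0.0240). DESeq2 called 7 higher and 3 lower, and Zim1, Phlda2, Asb4 and Ndn failed there with log2 fold changes of 1.07, -1.77, -0.60 and -0.63 (adjusted p = 0.164, 0.169, 0.0695 and 0.0573), while it gave Ascl2 no adjusted p. Without any filter on low counts, edgeR called 0 of 17242 genes, none of them imprinted, although 4113 genes, 17 of them imprinted, had an unadjusted p under 0.05; its prior degrees of freedom were then 3.23, against 11.8.

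**Figure D4:**
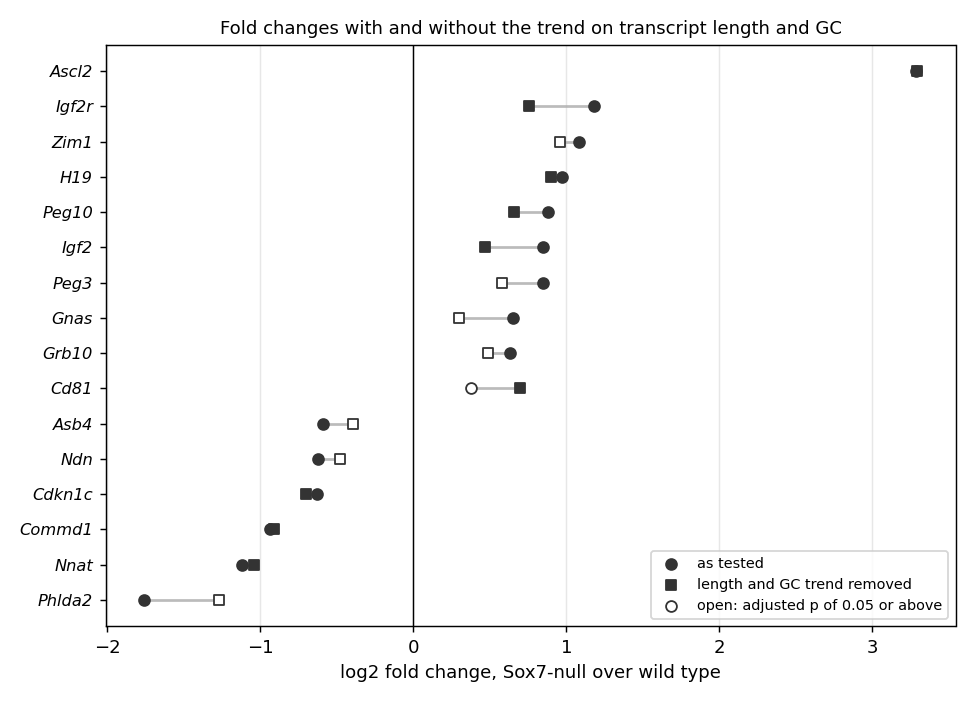
Log2 fold change of the 15 called imprinted genes and Cd81 as tested (circles) and after a trend of fold change on transcript length and GC content was removed (squares); open marks have an adjusted p of 0.05 or above. No gene changes sign, Igf2r and Igf2 move towards 0 and stay filled, and Ascl2, H19, Cdkn1c, Commd1 and Nnat move little.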

How the data were processed

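Total RNA of heart tube tissue was sequenced in 3 stranded libraries made without polyadenylation selection, per the labels' protocols. The deposited counts are whole numbers of reads for each symbol, in 1 file per library. The tools named are TopHat2, HTSeq, CASAVA and DESeq2 1.10.1, per the submitters' processing notes. Those notes name human builds although the symbols are of mouse, and for the annotation and strand setting the entry is "not given in the sources used here", so overlapping and antisense genes cannot be told apart. The 5 summary lines were left out; reads with no feature were 8.1%, 8.52% and 11.7% of the files.

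Counts were tested with edgeR 4.0.16 in R 4.3.3 (TMM, filterByExpr with a minimum count of 10, quasi-likelihood test, Benjamini-Hochberg adjustment over 13334 genes). There was 1 residual degree of freedom, so the lone wild type borrows its variation from the nulls. The SE is the log2 fold change divided by the square root of F. The fit was tested on simulated data. DESeq2 1.42.0, limma 3.58.1 (voom) and a trend fitted with mgcv 1.9.3 on length and GC of the longest GENCODE M21 transcript were alternatives. The members, their expressed allele, the 13 further lists (224 entries) and the rule for named genes (every member; called genes of the imprinted, imprint-keeping and IGF lists, up to 6 each by p, with Igf1r, Dnmt1, Ctcf and Trim28; rows overlapping a member were added after their values were seen) were chosen with earlier results of these data known. Intervals cover counting error only.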

Additional observations from a re-analysis of the deposited data

How the results depend on the processing

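No paired analysis was possible because the tube numbers 1, 2 and 3 are not shared between the groups. Leaving out a null library leaves 1 against 1 with no test, so counts of calls could not be given there. In place of a fit, each null library's difference from the wild type in log2(CPM + 0.5) was taken, with scaling from all 3 libraries. Medians of these differences were 0.233 to 0.243 for all imprinted genes. They were 0.43 to 0.511 for maternally expressed and 0.134 to 0.169 for paternally expressed ones, and no called gene changed sign. The median of 0.215 with both null libraries is of fitted edgeR values, an unlike measure. Without a filter on low counts, edgeR called 0 genes, against 2874 (1508 higher, 1366 lower), hence 0 imprinted genes in either class and direction; the median was 0.131 for all and 0.0675 for paternally expressed imprinted genes. DESeq2 called 1662 genes (941 higher, 721 lower), 3 imprinted genes lower, 2 of them maternally and 1 paternally expressed. With the length and GC trend removed, 1787 genes were called, 717 of them lower, and 3 imprinted genes fell, 2 maternally and 1 paternally expressed; medians were 0.205 for all and 0.301 for maternally expressed ones. At a mean of at least 5 CPM, 2 maternally expressed genes fell, and medians were 0.238 for all and 0.171 for paternally expressed ones. Upper-quartile scaling gave a median of 0.226, and limma-voom 0.101 for paternally expressed ones. The cause of these differences was not tested beyond the fewer or more genes that a filter admits. The remaining counts of imprinted genes stayed within 1.5 times. Depth limits Slc22a18, Dio3, Magel2, Rasgrf1, Mirg, Rtl1 and Nap1l5, with under 30 reads in every library.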

Other observations

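Neighbouring genes of a domain can be set against each other within a library, which leaves out library size. H19 took 56.4% of the summed reads of H19 and Igf2 in Sox7-null 1 (95% Wilson interval 56.1 to 56.8), 54.4% in Sox7-null 2 (54 to 54.8) and 53.4% in the wild type (52.9 to 53.9). The null libraries differed from each other by more than Sox7-null 2 differed from the wild type. For Igf2r and its antisense RNA Airn there were 109 and 88.1 Igf2r reads per Airn read in Sox7-null 1 and Sox7-null 2, against 50.7. With a trend on transcript length and GC removed, the fitted log2 fold changes of this pair were nearly equal, 0.76 and 0.74. A length of 1375 bases was taken for Airn there. Peg10 had 5.21 and 5.47 reads per read of Sgce, against 3.98, and with that trend removed Peg10 stood at 0.66 and Sgce at 0.66 on the log2 scale. Commd1 had 7.58 and 13.2 reads per read of Zrsr1, against 19.8. Cdkn1c had 30.4 and 29.9 reads per read of Kcnq1ot1, against 33.4, and Meg3 had 2.78 and 2.9 per read of Dlk1, against 2.38. Zim1 had 0.107 and 0.081 reads per read of Peg3, against 0.0803. For all of these pairs the wild type lay outside the range of the null libraries. That is common with 1 library against 2. Wild-type levels lay below both null libraries in 43.1% of all genes tested and above both in 43%. For Cdkn1c with Kcnq1ot1, and for Zim1 with Peg3, the wild type's Wilson interval overlapped those of both null libraries. For Meg3 with Dlk1 it overlapped that of Sox7-null 1. The ratios were not tested, and the intervals cover counting error only.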
